A study of Mus musculus with 15 samples.

Results

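The cilium and axoneme genes were taken by symbol: all genes whose symbol begins with Ift and a digit, Bbs, Dnah, Dnai, Dnal, Dnaaf, Cfap, Tekt, Rsph, Drc, Tctn or Spag, together with Foxj1, Pifo, Tppp3, Dynlrb2, Rfx2 and Rfx3. On the mouse genome array used here 99 such genes had a probe set of their own, of 18193 genes in all. They were covered by 161.0 probe sets, and each gene was read from its brightest one. Of the 99 genes, 48 had a mean signal over the 15 arrays above 100 and were tested, and 51 lay below that limit. The symbols do not mark cilia alone, because Spag9 and Spag5, for example, act outside the cilium.

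Transcripts were measured in laser-microdissected lung tissue of SP-C/c-raf mice, in which the surfactant protein C promoter directs c-raf to respiratory epithelium, on a C57BL/6 background. There were 5 arrays of dysplasia and 5 of transgenic unaltered lung, both cut from the same dysplasia-bearing transgenic mice at 5 to 7 months of age. A further 5 arrays held normal lung of non-transgenic littermates aged 7 to 10 months, so that the age ranges differed. By the methods, each array was 1 sample of pooled 10 µm sections from a single animal. A bulk sample of this kind cannot tell fewer cells of a type from less RNA per cell.

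All arrays had been scaled to the same trimmed mean of 500. The actin control had 5′ signal amounting to between 12.5% and 75.2% of its 3′ signal. Sex was mixed in the groups, since Xist signal was 9674 or more on 2 dysplasia, 1 transgenic and 4 non-transgenic arrays. Dysplasia 4, the lowest of these, also held Eif2s3y (Y-linked) signal of 495. Transgenic 4, taken from its number to be the same animal, held Xist signal of 85.0 and Eif2s3y signal of 1567. Dysplasia 4 thus held signal of both sexes, and whether it is a mixed or exchanged sample was not tested. Counts of calls over all tested cilium genes, all dim cilium genes, and the ciliated and club cell markers are given with and without it. The same holds for changes or adjusted p-values of the axonemal genes that stood high on dysplasia 4. Counts for single classes and for other marker lists rest on all arrays unless stated. The labels of transgenic 2 conflict, as its title names unaltered transgenic tissue and another entry names a tumor. All 9 alveolar type 2 cell markers with a probe set were above the signal limit, and none of 4 basal cell markers was.

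A cilium is built on a basal body and elongates by intraflagellar transport, in which trains of IFT-A and IFT-B particles travel outward on kinesin and back on dynein. IFT-B is needed chiefly for the outward way and IFT-A for the return. The transition zone and the BBSome control which proteins enter and leave. In the airway, ciliated cells carry many motile cilia, whose axonemes bear dynein arms, radial spokes and a nexin-dynein regulatory complex, and Foxj1 with the Rfx factors switches on their genes. Club cells, the secretory partners of ciliated cells, line the same airways, whereas alveolar cells bear no motile cilia.

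In dysplasia, 20 of the 48 tested cilium genes were higher than in transgenic unaltered lung and 3 were lower, at an adjusted p under 0.05 from limma. Over all 11603 tested genes the shares were 18.6% higher and 21.0% lower, against 20 and 3 of 48, that is 41.7% and 6.25%, of the cilium genes. Their median change was 0.26 on the log2 scale, where all genes had -0.01. Against non-transgenic lung, 18 were higher and 6 were lower in dysplasia, with 24.7% and 26.0% of all genes called, and the median change was 0.20 against -0.01 over all genes. Both comparisons use the same 5 dysplasia arrays. Without dysplasia 4, 16 genes were higher and 4 lower than in transgenic lung, with 17.2% and 20.2% of all genes called, and 15 and 6 against non-transgenic lung, with 22.9% and 24.7%. Of the tested genes, 2 (Cfap52 and Rsph1) passed the signal limit only through dysplasia, with a mean of 100 or less over the 10 other arrays. Their difference was therefore bound to appear, and on all arrays both are counted among the genes called higher in both comparisons.

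**Figure D1:**
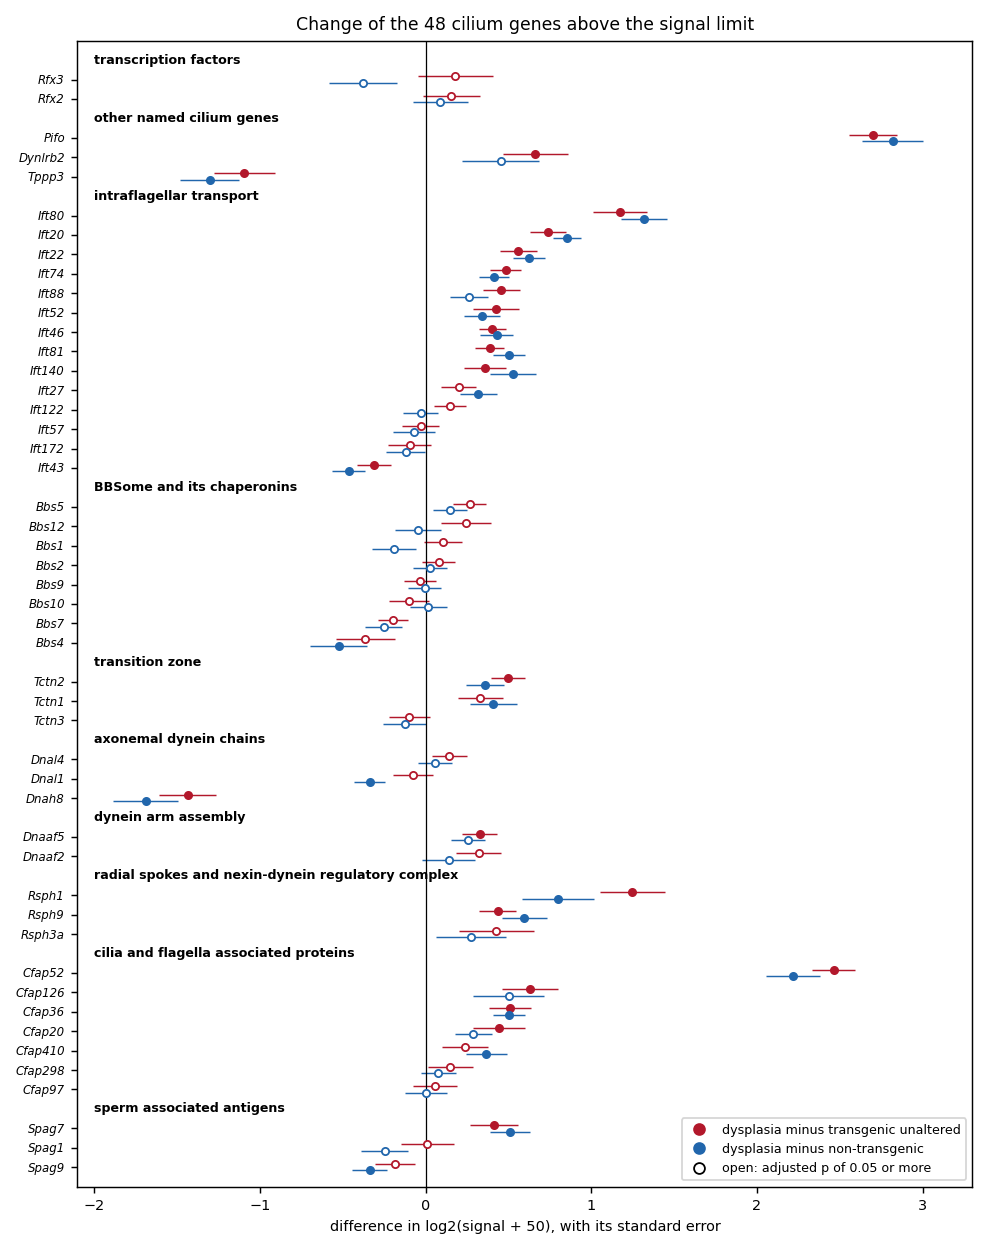
Difference in log2(signal + 50) for the 48 tested cilium genes, by class, for dysplasia minus transgenic unaltered (red) and dysplasia minus non-transgenic lung (blue), with standard errors from limma (n = 5 arrays a group). Filled points had an adjusted p under 0.05. Pifo and Cfap52 lie above 2 in both comparisons, and Dnah8 and Tppp3 below -1.

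Pifo and Cfap52 changed most. Pifo (pitchfork) is a basal body protein that acts when cilia are taken down. It had signals of 1080.3, 1082, 1176, 1037 and 1040.2 in dysplasia, against 80.3, 191, 129, 107 and 133 in transgenic unaltered lung and 113, 65.6, 148, 186 and 70.2 in non-transgenic lung. All 5 dysplasia arrays lay within 1.13-fold of each other, and the groups did not overlap. Group means were 1083 ± 56.1, 128 ± 40.8 and 117 ± 51.5 (SD, n = 5 each), a ratio of 8.46 to transgenic and of 9.28 to non-transgenic lung. The log2 change was 2.70 (SE 0.14, adjusted p = 8.0e-07) against transgenic and 2.82 (SE 0.19, adjusted p = 8.6e-07) against non-transgenic lung.

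Cfap52 (Wdr16), a WD-repeat protein of the doublet microtubules, had signals of 604, 499.6, 620.4, 468 and 569 in dysplasia, against 49.2, 86.2, 72.9, 48.8 and 42.2 in transgenic unaltered lung and 85.0, 67.8, 95.02, 122 and 39.4 in non-transgenic lung. Again every dysplasia array lay above every other array, and the 5 differed by no more than 1.33-fold. Dysplasia 4, which was highest for many other cilium genes, was the lowest of the 5 here. The signal was 9.22-fold that of transgenic and 6.75-fold that of non-transgenic lung, with log2 changes of 2.46 (SE 0.13, adjusted p = 8.0e-07) and 2.22 (SE 0.16, adjusted p = 1.6e-06). Because Cfap52 passed the signal limit only through dysplasia, these values are a description.

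**Figure D2:**
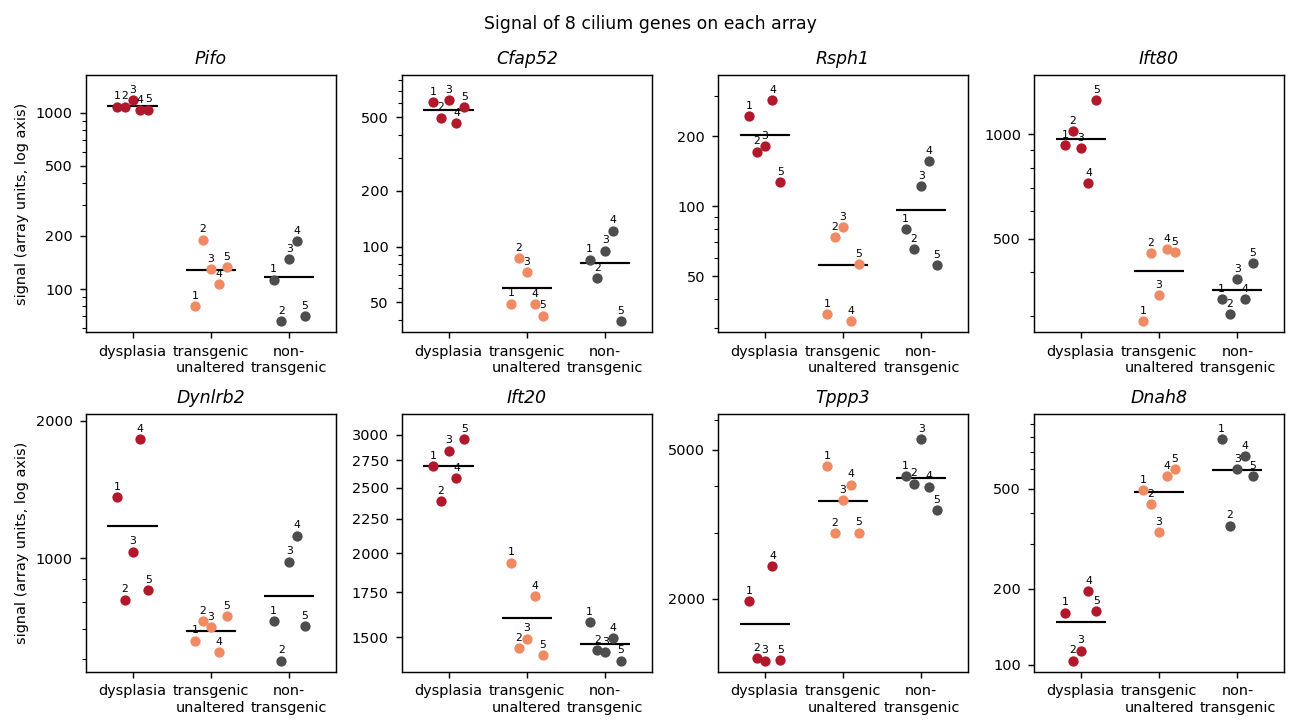
Signal in array units on a log axis for 8 cilium genes, with a point per array labelled by its replicate number and a bar at the group mean, for dysplasia, transgenic unaltered and non-transgenic lung (n = 5 each). Pifo and Cfap52 are even over the dysplasia arrays, Dynlrb2 and Rsph1 are highest on dysplasia 4 and 1, and Tppp3 and Dnah8 lie below both other groups.

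The 250 bases before the RefSeq start sites (GRCm38.p6) of Pifo and Cfap52, the genes that changed most, and of Dynlrb2, which had another pattern, are shown with motif matches in capitals. Searched on both strands were the Rfx half-site GTTGCC and the X-box, a paired and looser Rfx site that often holds a half-site. Pifo has 2 annotated starts, and the one with a match is shown.
Pifo, chr3:106001498-106001747, minus strand: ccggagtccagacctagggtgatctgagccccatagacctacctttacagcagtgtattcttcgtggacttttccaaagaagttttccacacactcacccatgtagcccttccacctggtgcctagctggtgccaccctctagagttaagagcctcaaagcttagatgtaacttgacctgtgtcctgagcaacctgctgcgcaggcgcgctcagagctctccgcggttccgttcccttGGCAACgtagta
Cfap52, chr11:67965643-67965892, minus strand: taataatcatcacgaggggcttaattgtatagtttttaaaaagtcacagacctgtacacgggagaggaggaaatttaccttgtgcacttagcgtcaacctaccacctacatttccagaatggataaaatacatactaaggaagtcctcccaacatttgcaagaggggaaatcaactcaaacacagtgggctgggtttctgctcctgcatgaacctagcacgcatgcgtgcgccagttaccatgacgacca
Dynlrb2, chr8:116504765-116505014, plus strand: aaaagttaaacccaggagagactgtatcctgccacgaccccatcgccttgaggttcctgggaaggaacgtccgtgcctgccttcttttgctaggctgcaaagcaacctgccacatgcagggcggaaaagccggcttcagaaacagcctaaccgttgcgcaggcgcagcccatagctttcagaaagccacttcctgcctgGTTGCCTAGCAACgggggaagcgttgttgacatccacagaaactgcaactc
The window of Pifo holds a half-site 12 bases before its start, that of Cfap52 holds neither motif, and that of Dynlrb2 holds a complete X-box beginning 51 bases before the start. Promoters were matched for 84 of the 99 cilium genes. Of those, 22 (26.2%) held a half-site and 13 (15.5%) an X-box, where 11.8% and 1.49% of all 27025 genes with such a window did. The forkhead motif TGTTTAC, also searched on both strands, was in 4 (4.76%) of the cilium gene windows and 3.54% of all. Among the 17 matched genes that were higher in dysplasia than in transgenic lung, 4 held a half-site and 2, Dynlrb2 and Tctn2, an X-box.

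The X-boxes of Dynlrb2 and Tctn2 are set here beside that of Tctn3, to show that genes with and without a call in dysplasia carry the motif. The match is in capitals.
Dynlrb2: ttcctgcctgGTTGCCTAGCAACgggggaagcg
Tctn2: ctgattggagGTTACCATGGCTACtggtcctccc
Tctn3: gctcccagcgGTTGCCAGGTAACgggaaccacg
Dynlrb2 and Tctn2 rose against transgenic lung, whereas Tctn3 had a log2 value of -0.10 (adjusted p = 0.60).

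All 14 intraflagellar transport genes were tested, and 9 of them rose and 1 fell in dysplasia against transgenic unaltered lung, with a median change of 0.40. Against non-transgenic lung 9 rose and 1 fell, with a median of 0.38. Of all tested genes 18.6% rose and 21.0% fell against transgenic lung, and 24.7% and 26.0% against non-transgenic lung. Ift80, an IFT-B subunit, had signals of 931, 1023, 915, 725 and 1256 in dysplasia, against 289, 455, 345, 466 and 457 in transgenic and 335, 303, 382, 335 and 426 in non-transgenic lung. Dysplasia 4 was the lowest and dysplasia 5 the highest of the dysplasia arrays, and all 5 stood above the other 10. The log2 change was 1.17 (SE 0.16, adjusted p = 2.2e-04) against transgenic and 1.32 (SE 0.14, adjusted p = 1.9e-05) against non-transgenic lung, and a second, dimmer probe set of Ift80 gave 0.57 and 0.69.

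Ift20, an IFT-B subunit that also resides at the Golgi, had signals of 2692, 2386, 2839.8, 2586 and 2951 in dysplasia, against 1935, 1444, 1492, 1724 and 1411 in transgenic and 1578, 1433, 1426, 1493 and 1384 in non-transgenic lung. It was among the 3 brightest cilium genes, and its dysplasia arrays again did not overlap the others. Its log2 changes were 0.74 (SE 0.11, adjusted p = 3.4e-04) and 0.86 (SE 0.08, adjusted p = 1.2e-05). Ift22, the small GTPase-like subunit of IFT-B, had 806, 702, 806, 654 and 689.7 in dysplasia, against 479, 469.9, 507, 575 and 382 in transgenic and 464, 418, 506, 491 and 406 in non-transgenic lung. No array of another group reached the lowest dysplasia value, and the log2 changes were 0.56 (SE 0.11, adjusted p = 0.0026) and 0.62 (SE 0.10, adjusted p = 2.9e-04).

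The other IFT-B genes that rose against transgenic lung moved less, with log2 changes of 0.48 for Ift74, 0.46 for Ift88, 0.43 for Ift52, 0.40 for Ift46 and 0.39 for Ift81. Ift88 did not pass the test against non-transgenic lung (0.26, SE 0.12, adjusted p = 0.092). Ift27 was read from a probe set that can match other transcripts, which was called against non-transgenic lung (0.32, SE 0.11, adjusted p = 0.039) and not against transgenic lung. A dimmer Ift27 set, whose name carries no suffix for shared transcripts, had the reverse, 0.28 (adjusted p = 0.024) against transgenic and 0.22 (adjusted p = 0.058) against non-transgenic lung, and the third Ift27 set passed neither test. The suffix-free set of Ift81 passed neither test, with 0.32 (adjusted p = 0.071) and 0.33 (adjusted p = 0.055). Ift57 and Ift172 passed neither test. The IFT-A subunits differed in direction. Ift140 rose by 0.36 and 0.53 against transgenic and non-transgenic lung, Ift43 had -0.31 (SE 0.10, adjusted p = 0.038) and -0.46 (SE 0.10, adjusted p = 0.0028), and Ift122 passed neither test. When partners that the symbol rule leaves out are added, a grouping made after the values were seen, 10 of 17 IFT-B genes rose and 0 fell against transgenic lung, with a median of 0.40. Among 6 IFT-A genes 2 rose and 2 fell, with a median of 0.05, and whether the subcomplexes differ was not tested.

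Of 19 tested motor and partner genes of intraflagellar transport outside the symbol rule, 8 rose and 2 fell against transgenic lung. Of all tested genes 18.6% rose and 21.0% fell in that comparison. Among the 19, Hspb11 (IFT25), Ttc26 (IFT56), Wdr34 and Wdr19 had the smallest p-values there. Their log2 changes were 0.58, 0.51, 0.56 and 0.57, at adjusted p of 6.9e-04, 0.0015, 0.0021 and 0.0047. Hspb11 and Ttc26 belong to IFT-B, Wdr19 to IFT-A, and Wdr34 is an intermediate chain of the dynein that returns the particles. Against non-transgenic lung 6 of the 19 rose and 4 fell, where 24.7% and 26.0% of all tested genes did. Without dysplasia 4 these were 4 and 3, with 22.9% and 24.7% of all tested genes.

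The BBSome carries membrane proteins out of cilia, and Bbs10 and Bbs12 help to assemble it. None of the 8 genes of this class passed the test against transgenic lung, with log2 values between -0.36 and 0.27 and a median of 0.02. The smallest adjusted p was 0.061, for Bbs5. The replicate number as a block pairs dysplastic and unaltered tissue of the same number, on the assumption that the number marks the mouse. With this block Bbs5 rose (limma, adjusted p = 0.036) and Bbs4 fell (adjusted p = 0.026). Calls under this block rest on pair 4 as well, whose arrays differed in Xist signal (9674 and 85.0) and whose deviations correlated at only 0.22. Against non-transgenic lung Bbs4 was the only gene of this class called, at -0.52 (SE 0.17, adjusted p = 0.029), on a probe set that can match several transcripts. Of its dimmer sets, which carry no suffix for shared transcripts, the dimmest was also called (-0.40, limma, adjusted p = 0.015). The other was not (-0.31, adjusted p = 0.50).

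Of the 3 tectonic genes of the transition zone, Tctn2 had signals of 145, 182, 201, 186 and 169 in dysplasia, against 101, 141, 106, 111 and 93.5 in transgenic and 141, 98.1, 159, 129.7 and 107 in non-transgenic lung. Dysplasia lay above transgenic lung without overlap, whereas non-transgenic 3 exceeded dysplasia 1. The log2 change was 0.50 (SE 0.11, adjusted p = 0.0036) against transgenic and 0.36 (SE 0.11, adjusted p = 0.025) against non-transgenic lung. The call against non-transgenic lung was lost without any of dysplasia 3, dysplasia 4, non-transgenic 2 and non-transgenic 5 (adjusted p = 0.061, 0.052, 0.056 and 0.057). Tctn1 rose against non-transgenic lung (0.41, SE 0.14, adjusted p = 0.038) and was called against transgenic lung with the block (adjusted p = 0.021, without it 0.084). Tctn3 passed neither test. Of 24 further transition zone and basal body genes tested, 3 rose and 3 fell against transgenic lung, a median of 0.07. Of all tested genes 18.6% rose and 21.0% fell in that comparison.

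Tppp3 and Dnah8 moved the other way. Tppp3, a tubulin polymerization promoting protein, had signals of 1974, 1393, 1369, 2448 and 1374 in dysplasia, against 4518, 3004, 3673, 4039 and 3007 in transgenic and 4251, 4066, 5332, 3991 and 3452 in non-transgenic lung. The highest dysplasia values were those of dysplasia 4 and 1, and even these lay below all 10 other arrays. Transgenic lung held 2.13-fold and non-transgenic lung 2.46-fold the dysplasia mean, with log2 changes of -1.09 (SE 0.19, adjusted p = 8.8e-04) and -1.30 (SE 0.18, adjusted p = 1.3e-04) in dysplasia.

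Dnah8, an axonemal dynein heavy chain best known from sperm flagella, had signals of 161, 104, 113, 196 and 163 in dysplasia, against 492, 433, 335, 561 and 599 in transgenic and 784, 357, 597, 672 and 561 in non-transgenic lung. No dysplasia array reached the lowest value of either other group. The log2 change was -1.43 (SE 0.17, adjusted p = 8.2e-05) against transgenic and -1.69 (SE 0.20, adjusted p = 3.8e-05) against non-transgenic lung. Endothelial markers moved in the same direction: all 14 fell in both comparisons, and their summed signal was 21242 to 29750.4 in dysplasia, 58880 to 74495 in transgenic and 66893 to 84522 in non-transgenic lung. Of 12 alveolar type 1 markers, 8 fell and 1 rose against transgenic lung, and 9 fell and 1 rose against non-transgenic lung. Their summed signals were 73767 to 108475 in dysplasia, 98280.2 to 151783 in transgenic and 106659 to 133258 in non-transgenic lung. Of 8 smooth muscle and pericyte, 5 mesothelial, 10 macrophage and 12 fibroblast markers, 6, 4, 7 and 5 fell and 0, 1, 2 and 1 rose against transgenic lung. Against non-transgenic lung 8, 4, 2 and 5 fell and 0, 1, 3 and 1 rose. The part of these cell types in the lower Tppp3 and Dnah8 signals was not tested.

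Dnah8 was the brightest heavy chain. Of the 15 dynein chain genes 12 lay below the signal limit, and the other tested chains were the light chains Dnal1 and Dnal4. Dnal1 fell against non-transgenic lung alone (-0.34, SE 0.10, adjusted p = 0.014), and Dnal4 passed neither test. Among the factors that assemble dynein arms in the cytoplasm, Dnaaf5 had signals of 365, 471, 539, 415 and 470.2 in dysplasia, against 347, 392, 347, 317 and 339 in transgenic and 342, 380.0, 363, 359.5 and 393 in non-transgenic lung. Dysplasia 1 lay within both other groups. The change of 0.33 (SE 0.11, adjusted p = 0.036) against transgenic lung was lost in 9 of 24 alternative settings, among them the omission of dysplasia 2, 3 or 5 or of any transgenic array but transgenic 2, and it was 0.26 (SE 0.10, adjusted p = 0.062) against non-transgenic lung. Dnaaf2 was called against transgenic lung with the block (0.32, adjusted p = 0.009, without it 0.094). A second Dnaaf2 probe set of similar brightness had 0.09 (limma without the block, adjusted p = 0.71) against transgenic and -0.11 (adjusted p = 0.59) against non-transgenic lung.

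Rsph1 and Rsph9 encode heads of the radial spokes, which relay signals from the central pair to the dynein arms. Rsph1 had signals of 244, 172, 182, 287 and 128 in dysplasia, against 34.4, 74.0, 81.6, 31.96 and 56.4 in transgenic and 79.9, 65.6, 122, 157 and 55.7 in non-transgenic lung. Dysplasia lay above transgenic lung throughout, while dysplasia 5 was below non-transgenic 4, and the highest values were again on dysplasia 4 and 1. The log2 change was 1.25 (SE 0.19, adjusted p = 4.8e-04) against transgenic and 0.80 (SE 0.22, adjusted p = 0.011) against non-transgenic lung, and 1.14 and 0.69 without dysplasia 4. Because Rsph1 passed the signal limit only through dysplasia, these values are a description. Rsph9 had 175, 154, 199.7, 170.0 and 156 in dysplasia, against 115, 124, 92.7, 147 and 92.4 in transgenic and 125, 62.8, 113, 117 and 71.9 in non-transgenic lung, with no overlap and log2 changes of 0.44 (SE 0.11, adjusted p = 0.011) and 0.60 (SE 0.14, adjusted p = 0.0043). Rsph3a, of the spoke stalk, was called against transgenic lung with the block (0.43, adjusted p = 0.034, without it 0.18).

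Cfap126 (Flattop), which positions basal bodies in multiciliated cells, had signals of 549, 347, 336, 563 and 292 in dysplasia, against 237, 280.4, 234, 240.0 and 229 in transgenic and 372, 173, 283, 336 and 229 in non-transgenic lung. Dysplasia 4 and 1 stood well above dysplasia 2, 3 and 5, and non-transgenic 1 and 4 reached into the dysplasia range. It rose against transgenic lung (0.63, SE 0.17, adjusted p = 0.013) and had 0.50 (SE 0.22, adjusted p = 0.081) against non-transgenic lung. Without dysplasia 4 the changes were 0.52 (adjusted p = 0.028) and 0.39 (adjusted p = 0.18). Cfap36, which binds the small GTPase Arl3, had 1203, 1463, 1454, 1422 and 1439 in dysplasia, against 735, 1183, 1097, 983 and 879 in transgenic and 922, 1016, 1035, 1056 and 824 in non-transgenic lung. Here dysplasia 1 was the lowest of its group and still exceeded every other array, with log2 changes of 0.51 (SE 0.13, adjusted p = 0.0092) and 0.50 (SE 0.10, adjusted p = 0.0013). Cfap20, an inner junction protein of the doublet microtubules, rose against transgenic lung by 0.45 (adjusted p = 0.049), and its second probe set, which carries no suffix for shared transcripts, gave 0.71. Cfap410 was called against non-transgenic lung (0.37, SE 0.12, adjusted p = 0.031), on a probe set shared by several transcripts, and its other set had 0.34 (adjusted p = 0.052). Cfap97 and Cfap298 passed neither test.

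The genes named sperm associated antigens are a mixed class. Spag9 (JIP4), a scaffold of MAP kinase signaling and the brightest of the 99 genes, had signals of 3875, 4978, 5215, 5595 and 5383 in dysplasia, against 4809.9, 5635, 5643, 5642 and 6686 in transgenic and 6458, 5702, 6326, 6585 and 6424 in non-transgenic lung. It fell against non-transgenic lung (-0.34, SE 0.11, adjusted p = 0.025), and this call was lost without non-transgenic 1, 3 or 4 (adjusted p between 0.051 and 0.057) or with Xist as a covariate (-0.29, adjusted p = 0.084). It had -0.18 (SE 0.12, adjusted p = 0.29) against transgenic lung. Dysplasia 1 was the lowest array. Spag7 had signals of 1782, 1896, 2259, 2038 and 1377 in dysplasia, against 1070.0, 1529.7, 1566, 1471 and 1295 in transgenic and 1248, 1226, 1278, 1359.7 and 1304 in non-transgenic lung. Dysplasia 5 lay among the unaltered samples and the other 4 above them, with log2 changes of 0.41 (SE 0.15, adjusted p = 0.0498) and 0.51 (SE 0.12, adjusted p = 0.0054). The call against transgenic lung was lost in 15 of 24 alternative settings.

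Spag5 (astrin), a protein of the mitotic spindle and not of cilia, was below the signal limit, with 132, 146, 124, 107 and 187 in dysplasia, against 39.7, 61.6, 61.9, 65.3 and 64.5 in transgenic and 38.3, 32.8, 22.8, 29.3 and 66.8 in non-transgenic lung. Its dysplasia arrays did not overlap the others. With dim probe sets kept in the fit, the change was 0.79 (adjusted p = 7.3e-04) against transgenic and 1.11 (adjusted p = 1.8e-04) against non-transgenic lung. Cell division markers moved alike: 17 of 19 rose against transgenic lung and 19 against non-transgenic lung, of which 5 passed the signal limit only through dysplasia, with summed signals of 9417 to 13492 in dysplasia, 4138 to 5945 in transgenic and 3232 to 4424 in non-transgenic lung. Their part in the Spag5 signal was not tested.

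The transcription factors of ciliary genes did not pass the test. Foxj1, which directs motile ciliogenesis, lay below the signal limit, with 154, 85.0, 73.5, 170.4 and 57.4 in dysplasia, against 56.8, 69.5, 42.7, 43.3 and 24.3 in transgenic and 76.0, 43.4, 76.1, 113 and 21.7 in non-transgenic lung. Dysplasia 4 and 1 were the highest of all arrays, non-transgenic 4 came next, and dysplasia 2, 3 and 5 lay within the range of non-transgenic lung. With dim probe sets kept, Foxj1 had a log2 change of 0.66 (adjusted p = 0.054) against transgenic and 0.44 (adjusted p = 0.26) against non-transgenic lung, and without dysplasia 4 its change was 0.52 (adjusted p = 0.11) against transgenic and 0.31 (adjusted p = 0.48) against non-transgenic lung.

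Rfx2 had signals of 82.8, 173, 151, 107 and 144 in dysplasia, against 64.1, 136, 128, 116 and 119.5 in transgenic and 81.9, 103, 111, 150.4 and 156 in non-transgenic lung, with log2 changes of 0.16 (SE 0.17, adjusted p = 0.55) and 0.09 (SE 0.17, adjusted p = 0.71). The 3 groups overlapped. Rfx3 had 156, 418, 384, 342 and 260.0 in dysplasia, against 173, 317, 255, 236 and 329 in transgenic and 368, 433, 373, 362 and 482 in non-transgenic lung, with log2 changes of 0.18 (SE 0.23, adjusted p = 0.60) and -0.38 (SE 0.20, adjusted p = 0.16). Dysplasia 1 and transgenic 1 were the lowest of their groups for both Rfx genes. Of 7 tested genes listed here as multiciliation regulators outside the symbol rule, 2 rose against transgenic lung, where 18.6% of all tested genes did. They were Foxa2 (0.94, SE 0.23, adjusted p = 0.0084) and Myb (0.95, SE 0.25, adjusted p = 0.013), and the other 5 did not pass the test. Foxa2 is not particular to multiciliation, as the authors name it among factors of pulmonary epithelial differentiation.

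Dynlrb2, a roadblock light chain of cytoplasmic dynein that is abundant in ciliated cells, had signals of 1361, 811, 1033, 1820.1 and 853 in dysplasia, against 660.0, 727, 705, 622 and 748 in transgenic and 727, 596, 983, 1120.5 and 709 in non-transgenic lung. Dysplasia 4 and 1 led, followed by non-transgenic 4, dysplasia 3 and non-transgenic 3, and all 5 dysplasia arrays lay above transgenic lung. The log2 change was 0.66 (SE 0.19, adjusted p = 0.022) against transgenic and 0.45 (SE 0.23, adjusted p = 0.14) against non-transgenic lung. The call against transgenic lung was lost without dysplasia 1 (adjusted p = 0.052) or transgenic 4 (adjusted p = 0.054), and without dysplasia 4 the change was 0.49 (adjusted p = 0.027) against transgenic and 0.29 (adjusted p = 0.30) against non-transgenic lung.

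Most genes of the motile axoneme were too dim to test: 12 of 15 dynein chains, 5 of 8 spoke and nexin-dynein genes, all 5 tektins and 18 of 25 Cfap genes. Of the 51 dim genes, 36 had a higher mean in dysplasia than in transgenic lung and 33 than in non-transgenic lung. The mean of 42 was lower in transgenic than in non-transgenic lung. For these counts of means the share over all dim genes was not computed. With dim probe sets kept, 14 of the 51 rose and 1 fell against transgenic lung, where 4.25% and 5.78% of all 6590 dim genes did. Without dysplasia 4 as well, 7 rose and 1 fell, with 3.57% and 4.98% of the dim genes. Against non-transgenic lung 7 rose and 3 fell, with 4.42% and 10.0% of the dim genes, and 2 and 3 without dysplasia 4, with 3.85% and 8.54%.

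Dnah6, an inner arm heavy chain, had signals of 181, 83.2, 147, 177 and 82.8 in dysplasia, against 9.94, 84.5, 46.4, 24.6 and 36.8 in transgenic and 54.2, 71.6, 104, 135 and 70.1 in non-transgenic lung, a log2 change of 1.04 (adjusted p = 0.0098) against transgenic and 0.42 (adjusted p = 0.19) against non-transgenic lung. Without dysplasia 4 it was 0.95 (adjusted p = 0.026) and 0.33 (adjusted p = 0.35). Rsph4a, a spoke head gene, had 90.9, 77.0, 65.6, 159 and 45.7 in dysplasia, against 13.99, 52.5, 21.0, 15.1 and 35.2 in transgenic and 21.4, 32.8, 49.3, 75.8 and 25.3 in non-transgenic lung, with changes of 0.80 (adjusted p = 0.019) and 0.58 (adjusted p = 0.075), and of 0.64 (adjusted p = 0.026) and 0.42 (adjusted p = 0.14) without dysplasia 4. Dysplasia 5 fell among the other groups' arrays for both. Spag6l, of the central apparatus, Cfap54, Cfap43 and Cfap45 were the remaining dim cilium genes, besides Spag5, that rose against transgenic lung with and without dysplasia 4, by 0.94 (adjusted p = 0.0046), 0.83 (adjusted p = 0.017), 0.77 (adjusted p = 0.028) and 0.45 (adjusted p = 0.01) on all arrays. Against non-transgenic lung they had 0.63 (adjusted p = 0.029), 0.76 (adjusted p = 0.041), 0.36 (adjusted p = 0.34) and 0.33 (adjusted p = 0.046), and none of the 4 was called there without dysplasia 4 (adjusted p = 0.059, 0.086, 0.63 and 0.10). Drc1 and Drc3 of the nexin-dynein regulatory complex rose by 0.87 (adjusted p = 0.04) and 0.97 (adjusted p = 0.049), and neither passed the test without dysplasia 4 (adjusted p = 0.088 and 0.10). Against non-transgenic lung they had 0.74 (adjusted p = 0.048) and 0.29 (adjusted p = 0.48). Without dysplasia 4 these were 0.68 (adjusted p = 0.10) and 0.08 (adjusted p = 0.84). Dnaic1, an intermediate chain of the outer arm, was the dim gene that fell against transgenic lung. It had 45.0, 18.6, 50.6, 78.5 and 41.9 in dysplasia, against 76.4, 77.5, 99.4, 98.4 and 90.3 in transgenic and 86.8, 90.1, 72.3, 102 and 82.3 in non-transgenic lung. Its changes were -0.54 (adjusted p = 0.024) and -0.52 (adjusted p = 0.022), and -0.65 (adjusted p = 0.0049) and -0.63 (adjusted p = 0.004) without dysplasia 4. Dnaic1, Cfap43 and Spag5 were read from probe sets that can match several transcripts.

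**Figure D3:**
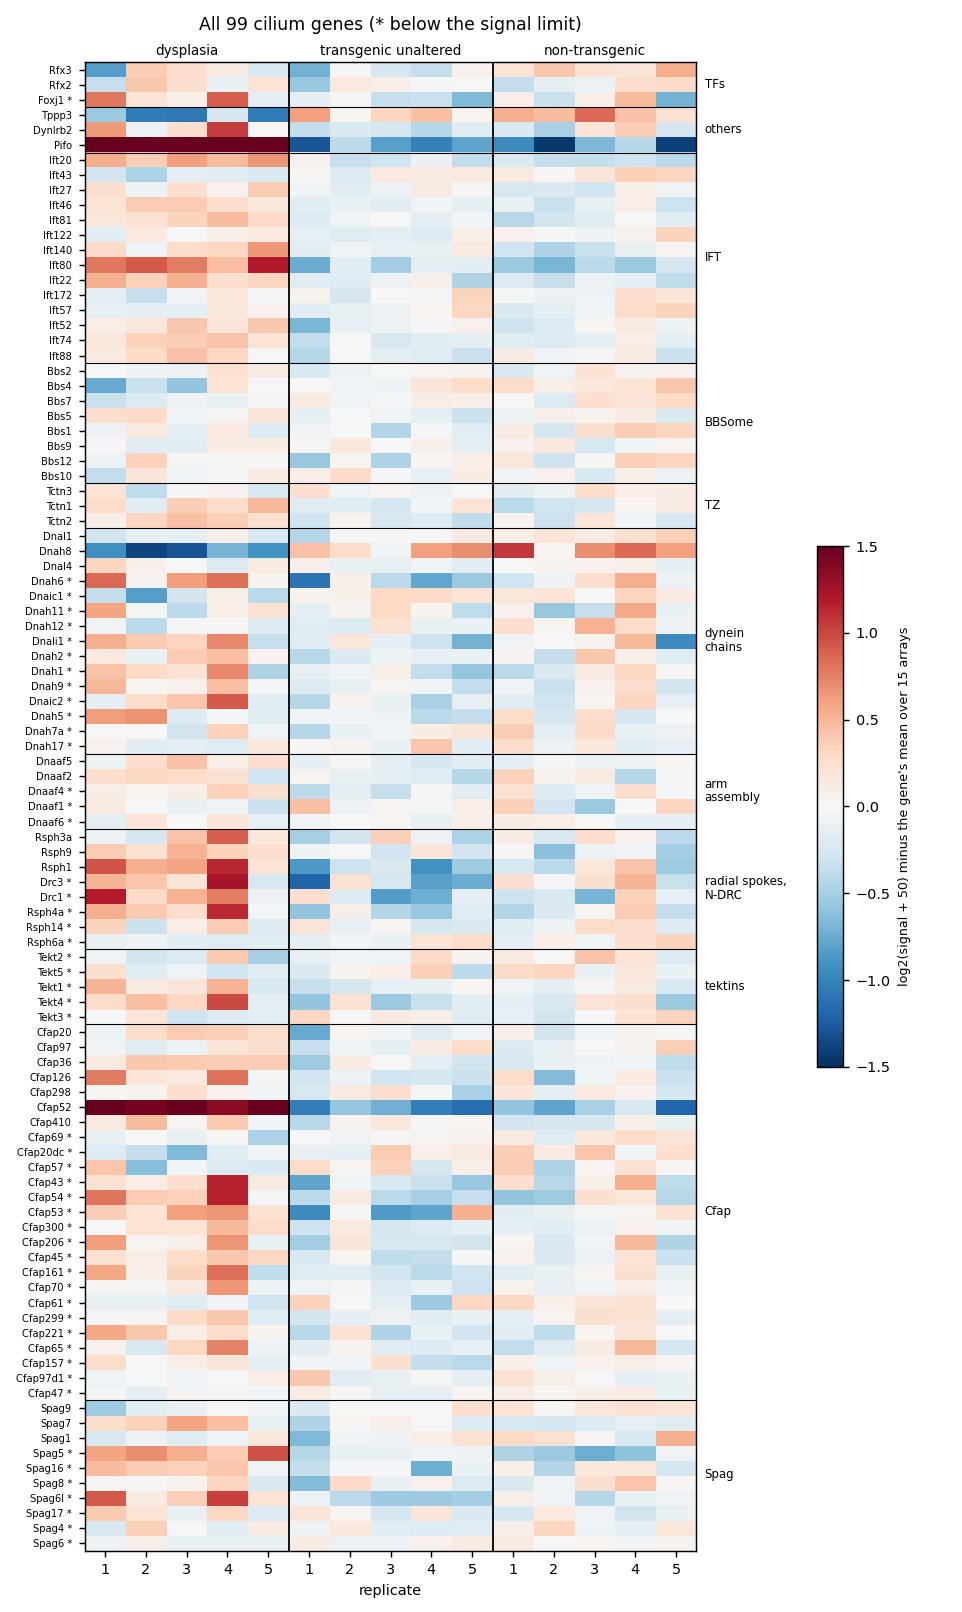
All 99 cilium genes (rows, by class, brightest at the top, * below the signal limit) on the 15 arrays (columns), coloured by log2(signal + 50) minus the gene's mean over the arrays. Pifo and Cfap52 are raised evenly over the 5 dysplasia arrays. Many axonemal and Cfap genes are reddest on dysplasia 4 among the dysplasia arrays, and on non-transgenic 4 among the non-transgenic arrays. For axonemal genes dysplasia 1 often comes next.

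The dysplasia arrays thus differed among themselves. Over the 33 genes of dynein chains, arm assembly, radial spokes with the nexin-dynein complex and tektins, dysplasia 4 was the highest dysplasia array for 18, dysplasia 1 for 7 and dysplasia 5 for 1. Their median signal was 80.7, 65.1, 63.1, 106 and 42.1 on dysplasia 1 to 5, against 34.2 to 46.7 in transgenic and 41.2 to 76.2 in non-transgenic lung. In the non-transgenic group, non-transgenic 4 was the highest array for 15 of these genes, and in the transgenic group transgenic 2 and 3 were for 8 each. Over all 99 genes, dysplasia 4 led its group for 45, non-transgenic 4 for 48 and transgenic 2, whose labels conflict, for 33. The 14 intraflagellar transport genes showed no such leader, as dysplasia 3, 4 and 5 were each the highest for 4 and dysplasia 1 and 2 for 1 each.

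Ciliated cell markers outside the symbol rule, 30 of 34 with a probe set and 10 above the limit, moved with these genes. All 10 tested markers rose against transgenic lung, with a median change of 0.73, and 4 rose against non-transgenic lung, with a median of 0.60. Of the 10, 3 (Cdhr3, Fam216b and Wdr78) passed the signal limit only through dysplasia, so that their higher signal was bound to appear, and the counts are a description. Without dysplasia 4, 9 markers rose against transgenic and 4 against non-transgenic lung. Spa17, Tubb4b, Capsl and Nme5 had the smallest p-values, with log2 changes of 0.72, 0.60, 0.67 and 0.89 against transgenic lung. The summed signal of the 10 markers was 7647 to 10483 in dysplasia, 4931 to 6368 in transgenic and 4918 to 6456 in non-transgenic lung, with dysplasia above both other groups. Tubb4b, a tubulin that is not particular to ciliated cells, made up most of this sum. Without it the sums were 1585 to 3542 in dysplasia, 842 to 1324 in transgenic and 1023 to 2214 in non-transgenic lung, so that dysplasia overlapped non-transgenic but not transgenic lung. The median marker signal was highest on dysplasia 4 (351) and dysplasia 1 (311), with 177 to 249.8 on the other dysplasia arrays and 255 on non-transgenic 4.

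Club cell genes stood high on the same arrays. Cyp2f2, a cytochrome P450 of club cells, had signals of 14873, 5529, 7317, 13049 and 5603 in dysplasia, against 3039, 4481, 3445, 3348 and 3728 in transgenic and 6593, 4619.8, 7946, 9587 and 3742 in non-transgenic lung. The order of its dysplasia arrays began with dysplasia 1 and 4, and non-transgenic 4 and 3 led their group. Of the 10 club cell markers, 4 rose and 1 fell against transgenic lung (3 and 1 without dysplasia 4), and 1 rose and 1 fell against non-transgenic lung, with and without dysplasia 4. Dysplasia 1 or 4 was the highest dysplasia array for 9 of them. Their summed signal was 59696 to 111220 in dysplasia, 60256 to 76874 in transgenic and 56877 to 90575 in non-transgenic lung. The ciliated and club cell marker signals thus moved with Rsph1, Dynlrb2, Cfap126 and the dim axonemal genes over the dysplasia arrays, and their part in the group differences was not tested. Pifo, Cfap52, Ift80 and Ift20 did not have their highest dysplasia signal on dysplasia 1 or 4.

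**Figure D4:**
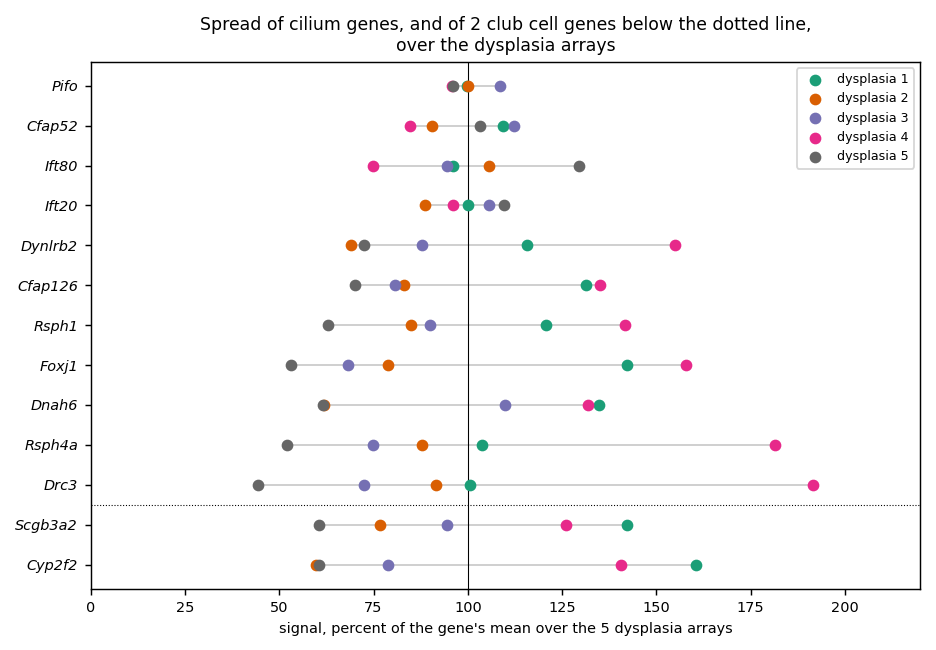
Signal on each of the 5 dysplasia arrays as a percent of the gene's mean over these arrays, for 11 cilium genes and, below the dotted line, the club cell genes Scgb3a2 and Cyp2f2. The arrays lie close together for Pifo, Cfap52 and Ift20, and for Dynlrb2 downward dysplasia 4 and 1 are the highest and dysplasia 5 or 2 the lowest.

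No cilium gene passed the test between transgenic unaltered and non-transgenic lung. At an adjusted p under 0.05 from limma, 0 of the 48 tested cilium genes were higher and 0 lower, where 1.59% and 0.121% of all genes were, and the median change was -0.07. At an unadjusted p under 0.05 there were 3, Rfx3, Dnal1 and Bbs1, and all 3 were lower in transgenic lung. Their log2 changes were -0.56 (SE 0.15, adjusted p = 0.12), -0.26 (SE 0.11, adjusted p = 0.38) and -0.30 (SE 0.13, adjusted p = 0.41). With the replicate number as a block, Rfx3 fell in transgenic lung (adjusted p = 0.039), although these numbers join different mice. Pifo had 0.12 (SE 0.22, adjusted p = 0.91) and Cfap52 -0.25 (SE 0.18, adjusted p = 0.64) in this comparison.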

How the data were processed

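Total RNA of microdissected lung sections was amplified and hybridised to Affymetrix Mouse Genome 430 2.0 arrays, 1 array a sample. The authors deposited signal intensities made with GCOS (version not given in the sources used here) and scaled to a target signal of 500, and their methods also name total intensity normalization after background subtraction in ArrayTrack. The values used here are the deposited intensities on a linear scale.

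Of 45101 probe sets, 64 controls were left out. Of the others 34945 named 1 gene, 932 several and 9160 none. Tests covered the 21658 probe sets, for 11603 genes, whose signal averaged above 100 across all 15 arrays, on log2(signal + 50), so that changes of dim genes are understated. Each comparison was an unpaired fit of its 10 arrays with lmFit and eBayes in limma 3.58.1 (R 4.3.3), with Benjamini-Hochberg adjustment over all tested probe sets and a threshold of 0.05. A gene was read from its brightest probe set. The fit was tested on simulated data. The number of arrays limits the precision.

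The cilium genes, the marker lists and the tests were chosen with earlier results of these data known. Values on every array were given for the 6 genes named singly, for up to 3 genes of each class with the largest change among those called between dysplasia and transgenic lung, and for the 3 brightest genes. From each other list up to 4 genes were named, by smallest p. The dim genes and the split of the transport particles were chosen after their values were seen.

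By the methods each sample came from 1 animal, although dysplasia 4 held signal of both sexes. The labels take dysplasia and transgenic unaltered tissue from the same mice, and deviations from the group means correlated at 0.73, 0.77, 0.63, 0.22 and 0.71 between arrays of the same number. Transgenic and non-transgenic arrays of the same number correlated at 0.46, 0.55, 0.32, 0.13 and 0.79, although the mice differ.

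Alternatives changed the offset, the normalization, the signal limit, the probe set, the gene symbols, the variance trend, the samples in the fit, the covariates (Xist, actin ratio, replicate block) and the arrays left out. Of 119 genes under the symbol rule 20 had no probe set of their own, and 3 probe sets shared with other genes were not used.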

Additional observations from a re-analysis of the deposited data

Results flagged for a closer look

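Among 57 groups of 5 arrays of the 19 genes with values on every array, 3 held an array far from the other 4, by a gap above 0.71 of the group's whole range. Chance flags about 1 in 20 groups. Cfap126 had a signal of 280.4 on transgenic 2, where the nearest array had 240.0. Cfap36 had a signal of 1203 on dysplasia 1, where the nearest array had 1422. Rfx2 had a signal of 64.1 on transgenic 1, where the nearest array had 116.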

How the results depend on the processing

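No call of a named gene turned its direction under the 29 alternatives run. The median change against transgenic lung was 0.32 with an offset of 16, 0.36 without one, 0.32 after quantile normalization, 0.33 with a signal limit of 200 and 0.32 with probe sets that carry no suffix. Against non-transgenic lung it was 0.29 with the limit of 200 and 0.12 with no limit and without dysplasia 4, an alternative chosen after seeing the data. Genes called lower numbered 1 against transgenic lung with probe sets without a suffix. Against non-transgenic lung they numbered 3 with such probe sets and 3 with Xist as a covariate. With that covariate 15 genes were called higher against transgenic lung, where the main fit had 20, and 17 against non-transgenic lung, where it had 18. The share of all genes called was not computed for these settings. Spag9 had -0.16 (limma, adjusted p = 0.60) against non-transgenic lung on its most variable probe set. The causes were not tested.

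With the replicate block, 24 genes were higher and 4 lower in dysplasia than in transgenic lung, 21 and 7 against non-transgenic lung, and 0 and 1 between transgenic and non-transgenic lung. The share of all genes called with the block was not computed, so these counts do not single out the cilium genes. Dysplasia and non-transgenic arrays of the same number came from different mice. Their deviations correlated at 0.44, 0.60, 0.26, -0.0037 and 0.73, against a mean of -0.10 between arrays of different numbers. What the arrays of a number share was not tested. Leaving out 1 array at a time gave 14 to 18 genes higher and 2 to 4 lower than in transgenic lung, and 13 to 18 and 4 to 7 against non-transgenic lung. Among these fits, the share of all genes called was computed only for the one without dysplasia 4. Signal close to background limits the 51 dim genes.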
